A study of Mus musculus with 2 samples.

Results

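Reg1, Reg2, Reg3b, Try5, Prss2, Cpb1 and Cela2a are 7 genes of the exocrine pancreas whose transcripts were present in single-cell libraries made from isolated mouse islets. The 7 were matched by gene symbol among 27998 genes, and each symbol matched 1 gene. They had been selected on measured values of the same libraries, namely lower levels in the ghrelin-knockout (GKO) than in the wild-type (WT) library, above all in endothelial cells, and the concentration of their unique molecular identifiers (UMIs, counted transcript molecules) in few barcodes. The GKO:WT differences below are therefore descriptions and carry no test.

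Islets of the pancreas were isolated from 8-week-old, chow-fed WT and GKO littermates on a C57BL/6N background, and the GKO mice (line GKO1) carried a germline deletion of the ghrelin gene. Collagenase was injected through the bile duct, the digested pancreases of 4 mice per genotype were pooled, and islets were purified on a density gradient, picked by hand, dispersed and sorted. Each genotype gave 1 library, so no spread between mice could be measured, and genotype cannot be told apart from pool, digestion, sort or library. The intervals given are exact 95% intervals that cover counting error only, and UMIs that lie in few barcodes vary more than these intervals allow. The WT library held 7792 barcodes (droplets, most with 1 cell) and 158067110 UMIs, and the GKO library held 7289 barcodes and 103511757 UMIs. The ghrelin gene Ghrl was counted 43634 times in WT and 280 times in GKO. The libraries shared 18 barcode sequences.

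Acinar cells make up most of the exocrine pancreas and release digestive enzymes, most of them as inactive precursors, into the ducts. Their genes are driven by PTF1, a transcription factor complex that binds an E-box (CANNTG) beside a second element (TGGGAA). Islets lie within this tissue, so acinar cells, acinar fragments and acinar RNA set free by digestion can enter an islet preparation. Try5 and Prss2 encode trypsinogens, Cpb1 encodes the precursor of carboxypeptidase B, and Cela2a encodes a pancreatic elastase. Reg1 and Reg2 encode secreted C-type lectin proteins of acinar cells that increase when the pancreas is injured. Reg3b encodes a related bactericidal lectin, also known as pancreatitis-associated protein, which is made by the intestinal epithelium as well.

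In GENCODE vM21, on the mm10 (GRCm38) build named in the submitters' processing notes, the 3 Reg genes lie within 58011 bases of chromosome 6. Reg3b spans chr6:78370657-78373466, Reg2 chr6:78395623-78408106 and Reg1 chr6:78422711-78428667, all on the plus strand. Try5 (chr6:41311233-41316841, minus strand) and Prss2 (chr6:41521787-41525079, plus strand) belong to the trypsinogen cluster of the same chromosome. Cpb1 spans chr3:20248264-20275733 and Cela2a chr4:141814962-141826160, both on the minus strand. The promoter windows of the 3 Reg genes and of Cela2a are shown. Over all barcodes, Reg2 and Reg3b differed between the libraries by more than Reg1 did. For Reg2 this did not hold once acinar-rich barcodes, defined below, were left out. Cela2a is the enzyme gene whose window held an E-box and TGGGAA within 30 bases of each other. Each window runs from 250 bases before to 50 bases after the transcript start in the RefSeq table (GRCm38.p6), 5′ to 3′. Capitals mark each E-box that lies within 30 bases of TGGGAA or its reverse complement, and that element.
Reg1, chr6:78425733-78426032, plus strand: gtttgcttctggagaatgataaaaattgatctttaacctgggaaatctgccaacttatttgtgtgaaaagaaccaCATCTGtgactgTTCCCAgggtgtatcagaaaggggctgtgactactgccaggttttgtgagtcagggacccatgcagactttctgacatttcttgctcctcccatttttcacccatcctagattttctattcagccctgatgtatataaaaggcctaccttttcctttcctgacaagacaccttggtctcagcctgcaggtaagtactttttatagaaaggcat
Reg2, chr6:78404905-78405204, plus strand: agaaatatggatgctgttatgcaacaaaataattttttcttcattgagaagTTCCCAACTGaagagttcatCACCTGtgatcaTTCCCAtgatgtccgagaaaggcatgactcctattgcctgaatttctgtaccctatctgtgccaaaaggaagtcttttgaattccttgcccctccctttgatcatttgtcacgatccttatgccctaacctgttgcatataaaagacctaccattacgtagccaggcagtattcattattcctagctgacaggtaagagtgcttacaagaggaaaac
Reg3b, chr6:78370635-78370934, plus strand: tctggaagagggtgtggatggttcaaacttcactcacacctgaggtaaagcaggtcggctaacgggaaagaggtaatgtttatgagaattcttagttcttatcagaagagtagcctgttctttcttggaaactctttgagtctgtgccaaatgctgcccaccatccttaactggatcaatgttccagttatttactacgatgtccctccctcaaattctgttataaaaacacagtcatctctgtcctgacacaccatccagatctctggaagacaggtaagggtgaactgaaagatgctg
Cela2a, chr4:141825956-141826255, minus strand: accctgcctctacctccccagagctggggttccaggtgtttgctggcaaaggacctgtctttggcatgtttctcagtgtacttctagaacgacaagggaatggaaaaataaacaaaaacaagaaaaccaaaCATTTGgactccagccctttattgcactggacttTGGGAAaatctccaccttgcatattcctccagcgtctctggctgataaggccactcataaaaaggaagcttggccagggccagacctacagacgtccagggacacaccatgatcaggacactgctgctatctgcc
In the Reg1 window, CATCTG starts 175 bases before the transcript start and TTCCCA follows after 6 bases. The Reg2 window holds the same kind of pair, CACCTG 6 bases before TTCCCA, and a second E-box, CAACTG, that overlaps a further TTCCCA. The Reg3b window holds 2 E-boxes and no TGGGAA on either strand. In the Cela2a window, CATTTG and TGGGAA lie 28 bases apart, a wider gap than in the Reg1 and Reg2 windows. Of the 7 genes, 6 had a window in the table, and 3 of these (Reg1, Reg2 and Cela2a) held the pair, against 6.97% of all 32851 windows. An E-box alone was present in 72.3% of all windows and TGGGAA on either strand in 25.6%. A match describes letters and is not a binding site, and none of these data measured binding.

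Most UMIs of the 7 genes lay in a small number of barcodes. For Reg1, 24103 UMIs were counted in the WT library and 7002 in the GKO library. Reg2 had 14991 and 3234 UMIs, and Reg3b had 4080 and 256. Among the enzymes, Try5 had 48345 and 11674 UMIs and Prss2 had 71403 and 16341. Cpb1 had 25528 and 5673 UMIs, and Cela2a had 43289 and 8413. In the WT library the 10 barcodes richest in a gene held 55.5% (Reg3b) to 69.1% (Try5) of its UMIs, and in the GKO library 58.0% (Cela2a) to 80.5% (Reg3b). A single WT barcode held 13340 Prss2 UMIs. The number of barcodes that together held 50% of a gene's UMIs was 4 to 8 in the WT library and 3 to 7 in the GKO library, whereas the median barcode of each library held 0 UMIs of each gene.

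**Figure D1:**
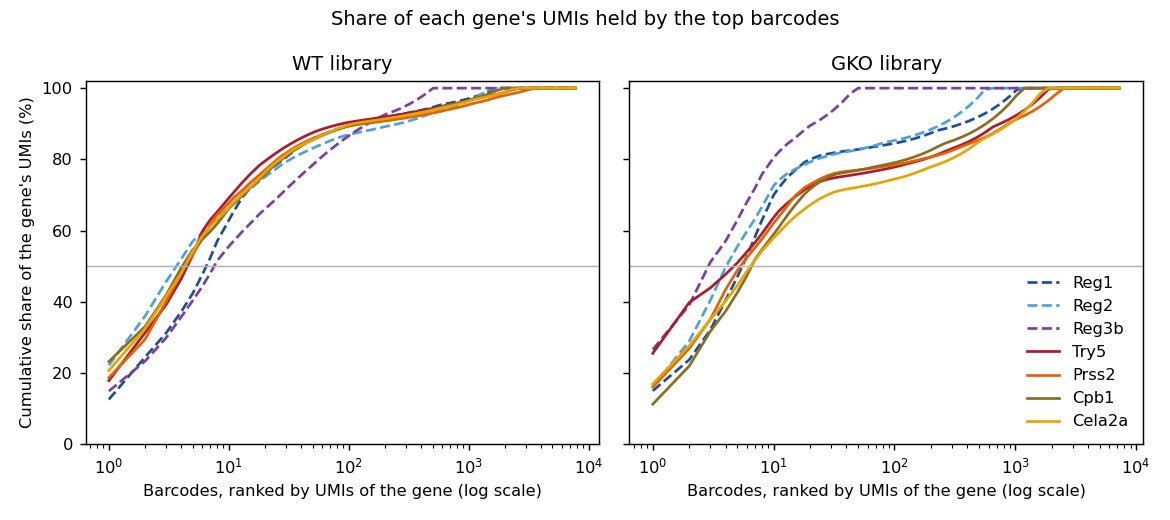
Cumulative share of each gene's UMIs (y axis, percent) held by barcodes ranked by that gene's UMIs (x axis, log scale), in the WT and GKO libraries. The grey line marks 50%, which every gene reached within 8 barcodes in WT and within 7 in GKO.

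The barcodes that held most of these UMIs carried the acinar programme. Barcodes were called acinar-rich when at least 5% of their UMIs came from a list of 17 acinar genes that holds none of the 7 (16 of them are in the files). There were 99 acinar-rich barcodes in the WT library and 32 in the GKO library. Many held few genes: 69 of the WT and 18 of the GKO acinar-rich barcodes had under 500 genes, 4 and 3 exceeded 10% mitochondrial UMIs, and the remaining 26 and 11 are called acinar-like below. At the limit, the WT barcode just inside had an acinar share of 5.19%, 69 Try5 and 11 Reg1 UMIs, and the barcode just outside had 4.82%, 4 Try5 and 6 Reg1 UMIs. In the GKO library the barcode just inside had 5.81%, 296 Try5 and 34 Reg1 UMIs, and the barcode just outside had 4.36%, 32 Try5 and 63 Reg1 UMIs. Acinar-rich barcodes held 87.3% to 89.1% of the UMIs of the 4 enzymes in the WT library and 69.8% to 75.2% in the GKO library. For Reg1 the shares were 78.6% and 79.7%, and for Reg2 86.3% and 80.5%. Reg3b stood apart in the WT library, where acinar-rich barcodes held 46.1% of its UMIs, against 87.5% in the GKO library.

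Within the 26 WT and 11 GKO acinar-like barcodes the 7 genes took up a large part of each transcriptome. The 4 enzymes together made up 2.47% to 25.4% of a barcode's UMIs in WT (median 13.8%) and 2.74% to 26.3% in GKO (median 14.1%). The 3 Reg genes made up 0.334% to 6.15% in WT (median 2.57%) and 0.160% to 11.8% in GKO (median 4.22%). The ranges of the libraries overlapped for both sums. Per barcode, Reg1 ran from 11 to 3024 UMIs in WT (median 252) and from 34 to 1049 in GKO (median 380), and Prss2 from 16 to 13340 (median 723.5) and from 112 to 2622 (median 449). Single acinar-like barcodes differed widely in their make-up. Try5 made up 6.75% to 64.5% of a WT barcode's enzyme UMIs (median 19.9%) and 14.7% to 48.0% of a GKO barcode's (median 24.4%). Reg2 made up 0% to 63.0% of the UMIs of Reg1 and Reg2 in WT barcodes (median 29.8%) and 2.24% to 52.0% in GKO barcodes (median 22.1%). Summed over the acinar-like barcodes, the enzymes reached 169959 CPM (counts scaled to a library of 1000000 UMIs) in WT and 159093 in GKO, a log2 GKO:WT ratio of -0.10 (-0.12 to -0.08). For the Reg sum the values were 34898 and 40209 CPM, a log2 ratio of 0.20 (0.16 to 0.24). Reg1 was higher in the GKO sum, with a log2 ratio of 0.51, whereas Reg2 and Reg3b were lower, at -0.30 and -0.66. On the scale of mean UMIs per barcode, GKO acinar-like barcodes were lower for all of these. The log2 ratios were -0.77 for Reg1, -1.08 for the Reg sum and -1.38 for the enzyme sum. GKO acinar-like barcodes were also less deep, with a median of 11073 UMIs against 16458.5 and a highest of 32667 against 144959. The medians per barcode were higher in GKO for Reg1, as given above, and for the Reg sum (629 against 409.5). They were lower in GKO for Reg2, Reg3b and the enzyme sum (1438 against 2134 for the last). With 11 GKO barcodes, of which the richest held 7661 enzyme UMIs and the poorest 441, these sums rest on very few cells.

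Over all barcodes, each of the 7 genes was at least 2-fold lower in the GKO library, against 2.36% of the 18138 genes with at least 10 UMIs. The contrast was part of the selection, so nothing is read from this count. The log2 GKO:WT ratios of CPM were -1.17 for Reg1, -1.60 for Reg2 and -3.38 for Reg3b, and -1.44 for Try5, -1.52 for Prss2, -1.56 for Cpb1 and -1.75 for Cela2a. When acinar-rich barcodes were left out of both libraries, the ratio of the enzyme sum went from -1.55 to -0.42 (-0.46 to -0.39). The ratios of the Reg genes did not move together, going from -1.17 to -1.25 for Reg1, from -1.60 to -1.10 for Reg2, and from -1.43 to -1.57 for the sum. Reg3b was then at 14.0 CPM in WT and 0.310 CPM in GKO, a log2 ratio of -5.50, from 2198 and 32 UMIs.

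Much of the WT Reg3b outside the acinar-rich barcodes lay in another small set of barcodes. A total of 15 WT barcodes and 0 of 7289 GKO barcodes held at least 20 Reg3b UMIs without being acinar-rich, a limit chosen after the values were seen. With the limit for a count of 0 set at 3 counts, up to 0.0412% of GKO barcodes could hold as many. These 15 barcodes held 1355 Reg3b UMIs, 33.2% of all Reg3b in the WT library. Their richest member held 607 Reg3b UMIs, more than any acinar-rich barcode. Reg1 was present in all 15 (4 to 1256 UMIs, 2287 in all), but 11 of the 15 held no Reg2 UMI and 13 held at most 3 enzyme UMIs. The richest in enzymes was a barcode with 1256 Reg1, 190 Reg3b, 513 Try5 and 607 Prss2 UMIs and an acinar share of 4.46%, just under the limit. The median mitochondrial share of the 15 was 11.9%: 9 exceeded the limit of 10%, 4 passed the gate for ductal-like barcodes (Krt19 with other duct genes) and 2 were unnamed.

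The leading genes of these 15 barcodes included Reg1, Reg3g and Dmbt1 beside genes known from the absorptive epithelium of the intestine. Reg3b was among them too, because the barcodes were chosen by it. In this paragraph, unlike elsewhere, CPM is per 1000000 UMIs of genes other than mitochondrial ones. It is a median over the 15 barcodes or, for a class, the level of its summed UMIs. Reg3g, a close relative of Reg3b, was present in 15 of 15 with a median of 6232 CPM, against 0.406 CPM in WT endocrine-like barcodes. Rbp2, a retinol-binding protein of absorptive intestinal cells, had a median of 6395 CPM and was present in 12 of 15. The fatty acid-binding proteins Fabp1 and Fabp2 had medians of 1938 and 1034 CPM. Alpi, the intestinal alkaline phosphatase, and Sis, the sucrase-isomaltase of the intestinal brush border, had medians of 775 and 414 CPM. Apolipoprotein gene Apoa1 had a median of 2014 CPM. Of the duct markers, Krt19 and Epcam had UMIs in 12 and 15 of the barcodes, and Krt7 and Tspan8 in 8 each, with medians of 193 and 55.2 CPM. Spp1 and Muc1 had UMIs in 3 of the barcodes each, Sox9 in 4 and Cftr in 5, all with a median of 0 CPM. In the sum of the other WT ductal-like barcodes Spp1 stood at 6566 CPM and Sox9 at 381 CPM, and Reg3b at 5.20 CPM. These are levels of a sum, which a few barcodes can carry, and not medians over barcodes. No marker list for intestinal cells was used, so the 15 barcodes are named here only by their Reg3b.

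**Figure D2:**
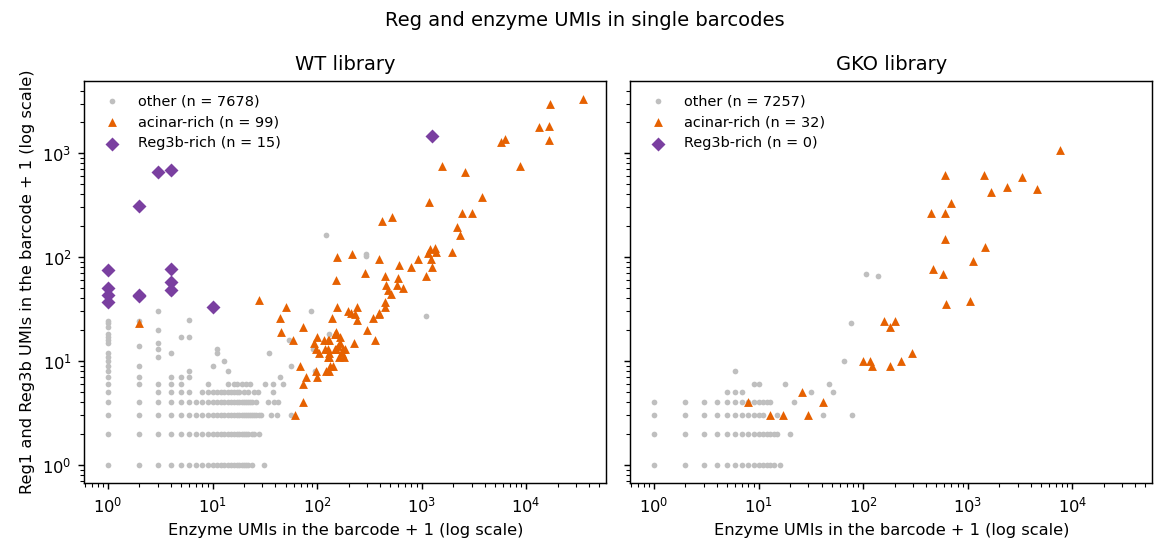
Reg1 and Reg3b UMIs (y axis) against enzyme UMIs (x axis) in each barcode, both plus 1 on log scales, for the WT and GKO libraries. Triangles mark acinar-rich barcodes (99 in WT, 32 in GKO), diamonds mark barcodes with at least 20 Reg3b UMIs that are not acinar-rich (15 in WT, 0 in GKO), and grey points all others; most diamonds lie at the left edge, with few enzyme UMIs.

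The ductal-like class shows how far a few barcodes can carry a class total. Over 69 WT and 91 GKO ductal-like barcodes, all 7 genes were at least 2-fold lower in GKO, against 6.8% of 11233 genes. Reg1 had 2008 UMIs in WT, of which 5 barcodes held 1991, and 11 UMIs in GKO. Reg3b had 911 UMIs in WT, 906 of them in 5 barcodes, and 0 UMIs in GKO. The richest 4 of these, with 607, 190, 64 and 44 Reg3b UMIs, were the ductal-like members of the 15 Reg3b-rich barcodes above. Try5 had 1328 UMIs in WT, with 776 and 513 in the richest barcodes, and 26 UMIs in GKO. Without the 5 richest barcodes for each sum, WT ductal-like barcodes held 0.625 Reg UMIs (0.447 to 0.851) and 1.58 enzyme UMIs (1.29 to 1.92) per barcode, and GKO ductal-like barcodes 0.0698 (0.0256 to 0.152) and 0.849 (0.665 to 1.07). The intervals of the libraries thus stayed apart for both sums. In GKO the 5 richest barcodes held 11 of only 17 Reg UMIs, so leaving them out itself lowers the GKO level.

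Outside acinar-like and ductal-like barcodes, 9 classes were set by marker gates: β-, α-, δ- and γ-like endocrine barcodes from their hormone genes, and endothelial-like (Plvap), macrophage-like (C1qa), activated and quiescent stellate-like and B cell-like barcodes from a lead gene and 3 further markers. These held 6225 WT and 5282 GKO barcodes. In each class, the 10 genes with the highest fold against the other classes included 2 to 5 of the class's own markers. The gates used these same markers, so this count cannot check the class names. The enzymes had UMIs in every class of both libraries. In the WT library, 56.8% of endothelial-like, 60.2% of macrophage-like and 65.1% of endocrine-like barcodes held an enzyme UMI, at median depths of 6928, 10361 and 19708 UMIs per barcode. After each barcode was thinned to 2000 UMIs the shares were 32.4%, 31.8% and 19.3%. The GKO library gave 51.7%, 62.8% and 56.3% before and 27.5%, 28.0% and 16.2% after thinning.

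Counted per barcode, the enzyme level spanned a narrower range across classes than their depth did. Enzyme UMIs per barcode ran from 1.64 (activated stellate-like, 1.44 to 1.86) to 3.34 (β-like, 3.27 to 3.42) in WT, a 2.04-fold range. The median depth of the same classes ran from 5086 to 36722 UMIs, a 7.22-fold range. The order in WT was β-like, γ-like (2.68), B cell-like (2.43), δ-like (2.35), quiescent stellate-like (2.14), α-like (2.11), macrophage-like (1.98), endothelial-like (1.96) and activated stellate-like. Only between β-like and γ-like did the intervals of neighbours in this order not overlap. On the CPM scale β-like barcodes were lowest, at 86.2 CPM, and quiescent stellate-like barcodes highest, at 366 CPM, a 4.25-fold range. In GKO, enzyme UMIs per barcode ran from 0.936 (B cell-like, 0.680 to 1.26) to 1.96 (macrophage-like, 1.83 to 2.09). Macrophage-like stood above the next class, β-like (1.70, 1.61 to 1.79). However, 1 GKO macrophage-like barcode held 75 of the 883 enzyme UMIs of its class, and this order was not checked without it. The Reg sum ran from 0.441 to 0.833 UMIs per barcode in WT and from 0.149 to 0.428 in GKO.

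Depth was also compared within a class. Endothelial-like barcodes of the WT library were split by depth into 4 groups of nearly equal size, with medians of 4161, 5780, 8236 and 13795 UMIs. From the shallowest to the deepest, these groups held 2.15, 1.99, 1.70 and 2.01 enzyme UMIs per barcode, with overlapping intervals, while their levels went from 544 to 131 CPM. In GKO endothelial-like barcodes the groups held 1.44, 1.52, 1.22 and 1.39 enzyme UMIs per barcode. WT β-like barcodes varied more, with 3.45, 3.19, 2.72 and 4.02 enzyme UMIs per barcode and no steady order with depth. Over all WT endocrine-like barcodes, a mix of classes of unequal depth, the enzyme level per barcode rose with depth, from 2.23 and 2.29 in the shallower groups to 3.12 and 3.38 in the deeper ones, whereas in GKO the groups held 1.47, 1.62, 1.69 and 1.67. CPM was highest in the shallowest group in each of these sets, and levels per barcode are given beside some CPM values below.

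**Figure D3:**
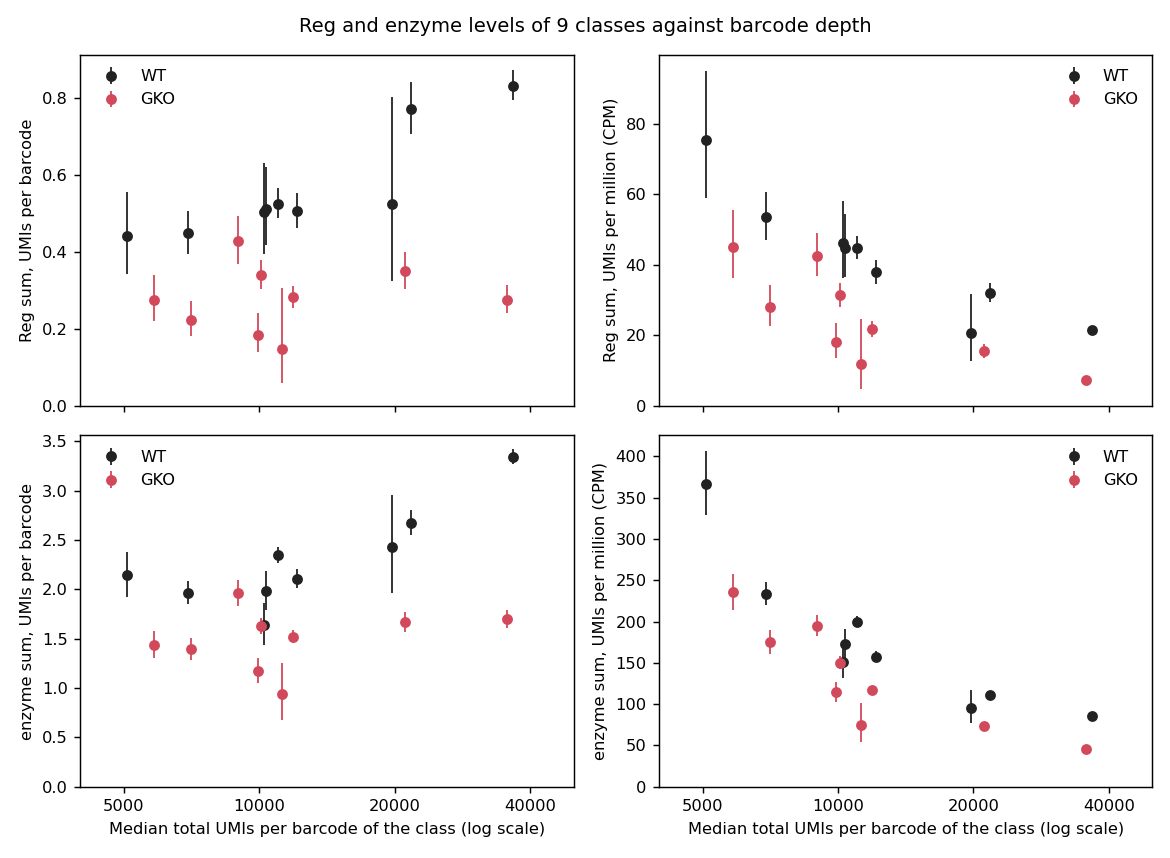
Reg sum (top) and enzyme sum (bottom) in 9 classes against the median total UMIs per barcode of the class (x axis, log scale), as UMIs per barcode (left) and as CPM (right), with bars for exact 95% counting intervals. Per barcode the enzymes stay between 1.64 and 3.34 UMIs in WT and between 0.936 and 1.96 in GKO, while enzyme CPM is lowest in the deepest class, β-like.

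The make-up of the enzyme UMIs varied over narrow ranges. Across the 9 WT classes, Try5 made up 22.4% to 28.9% of the enzyme sum, Prss2 33.0% to 40.0%, Cpb1 13.4% to 16.5% and Cela2a 19.7% to 26.1%. The WT acinar-like barcodes had 26.1%, 38.1%, 13.4% and 22.4%. In GKO the ranges were 24.8% to 36.4%, 32.6% to 38.2%, 9.09% to 16.4% and 18.2% to 27.3%. The highest WT share of Try5, 28.9%, was that of γ-like barcodes, of which 1 held 119 of the 507 Try5 UMIs. These shares leave out Try4, a trypsinogen gene close to Try5. In WT, Try4 had 1.52 UMIs per Try5 UMI in endothelial-like and 0.720 in acinar-like barcodes. In GKO the values were 0.706 and 0.624. Endothelial-like barcodes held fewer enzyme UMIs per barcode than endocrine-like barcodes in both libraries (1.96 against 2.76 in WT, 1.39 against 1.61 in GKO). On the CPM scale they stood above endocrine-like barcodes in both libraries. Macrophage-like barcodes were, per barcode, below endocrine-like barcodes in WT (1.98) but above them in GKO (1.96). These comparisons do not settle how the level of either class should be read. Whether these UMIs came from RNA outside cells was not tested.

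The Reg genes had a different make-up in each library, and the difference had the same direction in all 9 classes. Reg2 UMIs per Reg1 UMI were 0.481 to 1.54 across the 9 WT classes (median 0.911) and 0.319 to 0.75 across the GKO classes (median 0.407), and GKO was lower in 9 of 9. The lowest WT value was that of γ-like barcodes, of which 1 held 163 of the 318 Reg1 UMIs and 0 Reg2 UMIs. Without that barcode 155 Reg1 and 153 Reg2 UMIs remained. The acinar-like barcodes, which the gates kept apart, had 0.659 Reg2 UMIs per Reg1 UMI in WT and 0.375 in GKO. Other groups outside the 9 classes did not share 1 direction. The value was higher in GKO in ductal-like barcodes (0.0189 in WT, 0.546 in GKO). It was also higher in barcodes over the mitochondrial limit (0.207 and 0.441) and in unnamed barcodes (0.344 and 0.510). Barcodes under 500 genes and those that met more than 1 class were lower in GKO. In endothelial-like barcodes, Reg2 made up 47.7% of the UMIs of Reg1 and Reg2 in WT (41.1% to 54.3%) and 24.2% in GKO (15.8% to 34.3%). The intervals of the libraries did not overlap in 4 of the 9 classes. Reg3b made up 2.74% to 9.22% of the Reg sum across WT classes and 0% to 4.21% across GKO classes. In the acinar-like barcodes it made up 5.55% in WT and 3.05% in GKO.

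**Figure D4:**
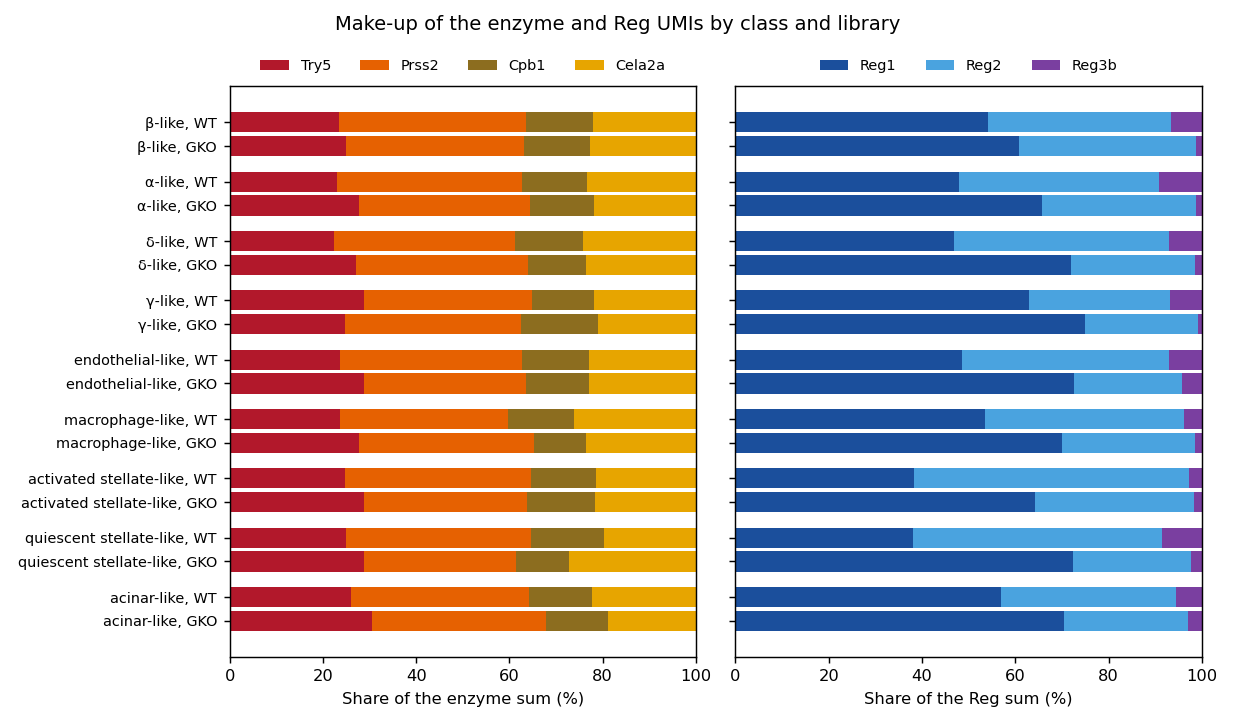
Share of the enzyme sum (left, percent) and of the Reg sum (right, percent) taken by each gene, in 8 classes and in acinar-like barcodes, with WT above GKO in each pair (B cell-like barcodes, with 7 Reg UMIs in GKO, are not drawn). Try5 makes up 22.4% to 28.9% of the enzyme sum in the 8 classes and 26.1% and 30.5% in acinar-like barcodes, whereas the Reg2 and Reg3b shares are smaller in GKO in every pair.

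In endothelial-like barcodes (563 WT, 424 GKO), 2 of the 7 genes were at least 2-fold lower in GKO, against 5.19% of 11921 genes. Reg2 had 112 UMIs in WT and 22 in GKO, or 23.7 and 6.52 CPM, a log2 GKO:WT ratio of -1.86 (-2.59 to -1.19). Reg3b had 18 and 4 UMIs, with a ratio of -1.68 (-3.71 to -0.08). Reg1 had 123 and 69 UMIs, and its ratio of -0.35 had an interval that included 0 (-0.80 to 0.09). Among the enzymes, Prss2 had 432 and 205 UMIs and a ratio of -0.59 (-0.84 to -0.35). Cpb1 and Cela2a had ratios of -0.51 and -0.41, with intervals below 0. Try5 had 261 and 170 UMIs and a ratio of -0.13 (-0.42 to 0.15). No endothelial-like barcode held more than 6 Reg or 25 enzyme UMIs, and 216 WT and 186 GKO barcodes held no UMI of any of the 7.

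Try5 is hard to count apart from its neighbours. Its longest coding transcript is 97.1% identical to that of Try4, with a shared run of 274 bases, and 93.6% identical to that of Try10. Try4 had 396 UMIs in WT endothelial-like barcodes and 120 in GKO. Summed, Try4 and Try5 had a log2 ratio of -0.69 (-0.90 to -0.49) there, below that of Try5 alone. In endocrine-like barcodes, Try4 had 1.42 UMIs per Try5 UMI in WT and 0.646 in GKO. In WT endothelial-like and macrophage-like barcodes this value was 1.52 and 1.45, against 0.720 in WT acinar-like barcodes. In GKO the values lay closer to the acinar-like one, at 0.706 and 0.967 against 0.624. The Reg transcripts are further apart, with 84.5% identity and a longest shared run of 19 bases between Reg1 and Reg2.

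In macrophage-like barcodes (201 WT, 451 GKO), 0 of the 6 genes with at least 10 UMIs were 2-fold lower in GKO, against 4.22% of 11342 genes. Reg2 had 44 UMIs in WT and 55 in GKO, or 19.1 and 12.1 CPM, a ratio of -0.66 (-1.26 to -0.05). Reg1 had 55 and 135 UMIs and a ratio of 0.32 (-0.15 to 0.80). Try5 was higher in GKO, with 94 and 245 UMIs and a ratio of 0.40 (0.05 to 0.76), and the enzyme sum, at 173 and 195 CPM, had a ratio of 0.17 (-0.0022 to 0.34). A single GKO barcode with an acinar share of 3.38% held 26 Reg and 75 enzyme UMIs. Without the richest barcode of each library the ratio of the enzyme sum was 0.09. Per barcode the enzyme level was 1.98 UMIs in WT (1.79 to 2.19) and 1.96 in GKO (1.83 to 2.09), and GKO macrophage-like barcodes were less deep, with a median of 8983 UMIs against 10361.

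In the endocrine-like barcodes (5115 WT, 3742 GKO), Reg1 was at 14.6 CPM in WT and 10.8 in GKO, Reg2 at 10.9 and 4.83, and Reg3b at 1.95 and 0.207. The enzyme sum was at 111 CPM (2.76 UMIs per barcode) in WT and 83.3 CPM (1.61 UMIs per barcode) in GKO, a log2 ratio of -0.41 (-0.46 to -0.37). β-Like barcodes, which had the lowest enzyme CPM of the 9 classes in both libraries, were 2119 of these barcodes in WT and 820 in GKO. The pooled ratios therefore also depend on this mix of classes, and the ratios of single classes follow. Of the 7 genes, 3 were at least 2-fold lower in GKO in β-like barcodes (background 2.58%), 2 in α-like (1.99%), 2 in δ-like (1.99%) and 2 in γ-like barcodes (2.12%). Reg2 and Reg3b were among these in each of the 4 classes, and Reg1 was the third in β-like barcodes. β-Like barcodes had the lowest ratio of the enzyme sum, at -0.92 (-1.01 to -0.84), and the other 3 classes lay between -0.59 and -0.41. Reg1 had ratios from -1.37 (-1.64 to -1.11) in β-like to 0.10 (-0.14 to 0.35) in δ-like barcodes, but 1 GKO δ-like barcode with an acinar share of 4.36% held 63 of the 238 Reg1 UMIs. Without the richest barcode of each library, an alternative chosen after seeing the data, the δ-like ratio of Reg1 was -0.30 (-0.57 to -0.03) and that of Reg3b went from -2.76 to -4.99, with 1 GKO UMI left. In γ-like barcodes the same step moved Reg1 from -0.80 to -0.48, Try5 from -0.82 to -0.48, Prss2 from -0.52 to -0.79 and Cpb1 from -0.30 to -0.68. The richest WT γ-like barcode held 163 Reg1 and 119 Try5 UMIs but 1 Prss2, 0 Reg2, 0 Cpb1 and 0 Cela2a UMIs, a make-up unlike that of the classes.

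Over the 9 classes, Reg2 was lower in GKO in 9, with an interval below 0 in 8, and its ratios ran from -2.14 (activated stellate-like) to -0.66 (macrophage-like). Reg3b was lower in the 8 classes in which it had UMIs in both libraries, with 6 intervals below 0. Reg1 was lower in 6 classes with 3 intervals below 0, δ-like not among them unless its richest barcodes were left out. Of the enzymes, Prss2 was lower in 8 classes (7 intervals below 0), Cpb1 in 9 (6), Cela2a in 8 (5) and Try5 in 7 (3, with 1 interval above 0). The classes of a library share its preparation and are not replicates of a genotype.

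**Figure D5:**
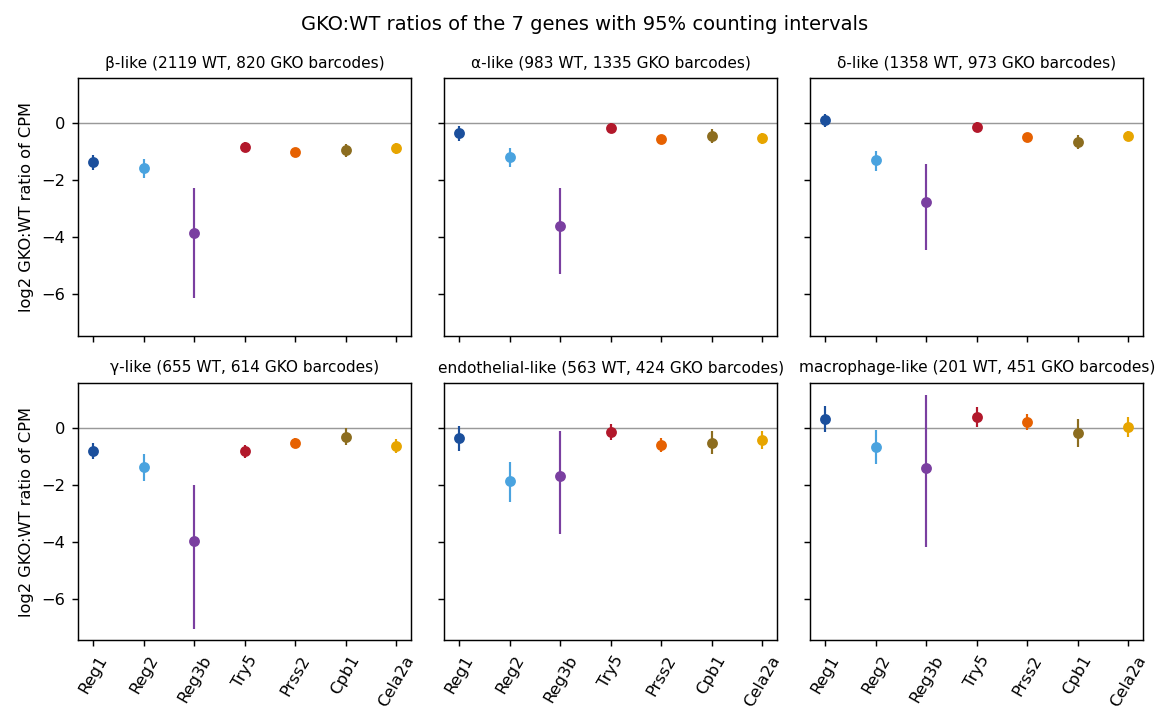
Log2 GKO:WT ratio of CPM (y axis) of the 7 genes (x axis) in β-, α-, δ-, γ-, endothelial- and macrophage-like barcodes, with bars for 95% counting intervals. Reg2 and Reg3b lie below the other genes in each panel, with wide intervals for Reg3b, and in macrophage-like barcodes Reg1, Try5, Prss2 and Cela2a lie at or above 0.

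Other acinar genes were followed in a list of 37 enzymes, secretory proteins, transcription factors and Reg genes, of which 36 were in the files. Over all barcodes, 30 of the 33 with at least 10 UMIs were lower in GKO, with a median log2 ratio of -1.45, against a median of 0.28 over all genes tested. Ctrb1, the chymotrypsinogen with the most UMIs of the list, had 131139 UMIs in WT and 31423 in GKO. The lipase Pnlip and its cofactor Clps had ratios of -1.75 and -1.02. Cela1, an elastase next after Ctrb1 in UMIs, had a ratio of -0.97 over all barcodes but of 0.51 in endocrine-like barcodes. In endothelial-like barcodes 17 of 19 were lower (median -0.47), against a median over all genes of 0.03. In endocrine-like barcodes 24 of 31 were lower (median -0.51). No median over all genes is given for these pooled barcodes, and in the 4 single endocrine classes it was 0.03 to 0.08. The pooled values, that of Cela1 included, also depend on a class mix that differed between the libraries. In macrophage-like barcodes 17 of 19 were higher in GKO (median 0.68, against 0.07 over all genes), with Clps at 1.58. Without the GKO barcode that held the most UMIs of the 7 genes, 14 of 18 were higher (median 0.57). In acinar-like barcodes 20 of 33 were lower, with a median of -0.11. No median over all genes is given for acinar-like barcodes, so nothing is read from that count. For all barcodes and for endothelial-like and macrophage-like barcodes that median stands beside the counts. The share of all genes lower in GKO is given for none of the sets.

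Several genes of the list lay outside the acinar-rich barcodes. Acinar-rich barcodes held 7.42% of Reg3g UMIs in WT (1766 UMIs, against 170 in GKO) and 12.0% of the UMIs of Dmbt1, a secreted mucosal defence protein. They held 1.42% of the UMIs of Bhlha15 and 3.91% of those of Nr5a2, transcription factors that acinar cells use but do not use alone. Reg4 had 438 UMIs in WT, 435 of them in 5 barcodes, and 0 in GKO. Chosen after its values were seen, as were Dmbt1 and Reg4, Ptf1a, the subunit that gives PTF1 its name, had 43 UMIs in WT and 5 in GKO. Unlike the genes above, 65.1% of its WT UMIs lay in acinar-rich barcodes. Of the 5 transcription factors of the list, 3 were lower in GKO over all barcodes and 2 were higher. Rbpjl was among the higher ones, with 50 UMIs in WT and 39 in GKO, a log2 ratio of 0.25.

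Across 21 combinations of class and library with at least 20 barcodes, acinar-like barcodes left out, the other genes whose log2(CPM + 1) followed the enzyme sum most closely were Ctrb1 (Pearson r = 0.99), Cela3b (0.96), Rnase1 (0.94), 2210010C04Rik (0.93) and Klk1 (0.92). For the Reg sum they were Ctrb1 (0.95), Spink1 (0.95), Klk1 (0.87), Cela3b (0.86) and Rnase1 (0.86). These values are a description of points that share libraries and depend on depth, and they include the ductal-like barcodes.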

How the data were processed

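Single-cell RNA-Seq libraries of dispersed islet cells were prepared with the Chromium 3′ kit, 1 per genotype from 4 pooled mice. The values used are raw UMI counts per gene and barcode, as deposited by the authors; the matrix headers name Cell Ranger 5.0.1, and the submitters' processing notes name mm10. Corrections that the study made later, such as removal of ambient RNA, are not in these counts. The libraries held 158067110 (WT) and 103511757 (GKO) UMIs, with medians of 13934 and 10521 per barcode.

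Whole-library values used all barcodes. For the classes, barcodes had to show 500 genes or more and no more than 10% of UMIs from mitochondrial genes, which 7100 WT and 6346 GKO barcodes did. Endocrine-like classes required at least 10% of UMIs from 1 hormone, and the other classes 2 UMIs of a lead marker and at least 3 further markers. Barcodes that met more than 1 class (368 WT, 245 GKO) were left out, which stood in for doublet removal. GKO:WT ratios compare CPM of UMIs summed per class and library. Intervals are exact at 95% (Poisson for levels, Clopper-Pearson for shares, conditional binomial for ratios). No test was possible, since each genotype had a single library. A gene entered a background share with at least 10 UMIs over both libraries. The members and the lists of markers and acinar genes were chosen with earlier results of these data known. From the list of acinar genes, up to 2 per family with the most UMIs were named. Dmbt1, Reg4, Ptf1a and Rbpjl were named beyond this rule, after their values were seen. The ratio code was tested on simulated data. Alternatives were another barcode filter, total, scaling, hormone limit, acinar limit, doublet removal, removal of the richest barcodes, and thinning to 2000 UMIs. TMM factors came from edgeR 4.0.16 in R 4.3.3, doublet scores from scikit-learn 1.9.0, intervals from scipy 1.17.1 and alignments from Biopython 1.88, under Python 3.11.15.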

Additional observations from a re-analysis of the deposited data

Results flagged for a closer look

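The log2 GKO:WT ratio of Try5 was 0.40 in macrophage-like barcodes and -0.27 in endocrine-like barcodes. These are opposite directions under the same contrast, with 1 library per genotype, and the difference was not tested. Try5 shares long stretches with Try4, and for the sum of both genes the ratios were 0.09 and -0.82. The endocrine-like values pool classes whose mix differed between the libraries. In the single endocrine classes the Try5 ratio ran from -0.83 (β-like) to -0.13 (δ-like, -0.31 to 0.04).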

How the results depend on the processing

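No paired analysis was possible because each genotype had 1 library. Replicate error is therefore unknown, and depth limits Reg3b most. Of 60 alternative values for the 6 sums, 47 stayed within the counting interval of the reported value and 13 did not, and 0 changed sign where that interval lay off 0. In endothelial-like barcodes the Reg sum stayed between -1.04 and -0.88 and the enzyme sum between -0.56 and -0.29. For the enzyme sum in macrophage-like barcodes (0.17), UMIs per barcode gave -0.02 and thinning gave -0.14. In endocrine-like barcodes, the Reg sum (-0.79) was -1.01 with hormone genes left out of the total, -1.15 per barcode, -1.03 with TMM factors, -1.14 with the other hormone limits and -0.67 without the highest doublet scores. Under the same settings the enzyme sum (-0.41) was -0.63, -0.77, -0.66, -0.58 and -0.29, and it was -0.48 after thinning. Among 209 alternative values for single members, 171 stayed within that interval, 35 did not, and 3 whose interval lay off 0 changed sign, each after thinning: Reg3b in endothelial-like barcodes (0.41, from 3 and 3 UMIs), Reg2 in macrophage-like barcodes (0.03, from 7 and 16 UMIs) and Try5 in macrophage-like barcodes (-0.19, from 25 and 49 UMIs). The causes were not tested. With at least 50 UMIs, the background share of genes at least 2-fold lower was 1.14% over all barcodes, 1.07% in endothelial-like and 1.21% in macrophage-like barcodes, and with a UMI required in each library only, it was 7.35% in macrophage-like barcodes. Leaving out the richest barcode of each class (δ- and γ-like included), and limits of 10 and 50 Reg3b UMIs (32 and 4 WT barcodes, 0 GKO barcodes), were chosen after seeing the data.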

Other observations

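In the WT library, 1 ductal-like barcode outside the 15 Reg3b-rich ones held 776 Try5, 222 Prss2 and 26 Reg1 UMIs.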
